A study of Mus musculus with 2 samples.

Results

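The structural genes of central nervous system myelin were followed across the cells of the mouse hippocampus in a model of Fabry disease. The set holds 9 genes taken by name (Mbp, Mog, Mag, Mobp, Cldn11, Cnp, Mal, Opalin and Ermn) out of 12744 genes listed for both libraries, and all 9 were listed for both. Fabry disease follows the loss of alpha-galactosidase A, the lysosomal enzyme encoded by Gla, which removes galactose from glycolipids such as globotriaosylceramide. Single cells came from hippocampi of GlaKO mice and of wt littermates, both 57 weeks old, and gave 1 library per genotype. Mice of both genotypes were anaesthetised with xylazine and ketamine and perfused with saline, and their cells were dissociated with enzymes, cleared of debris and sorted with the dye 7-AAD. The labels give neither the number of animals per library nor their strain or sex.

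Myelin is the multilayered membrane that oligodendrocytes wrap around axons. Its layers are held together by proteins on the inner and outer membrane faces, and mature oligodendrocytes give a large part of their messenger RNA to them. Oligodendrocytes arise from precursors that carry Pdgfra and Cspg4 and that raise these genes as they differentiate. Many myelin transcripts, that of Mbp above all, are carried out of the cell body into the processes, so tissue dissociation can free them into the suspension.

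The transcripts were counted as unique molecular identifiers (UMIs), 1 tag per molecule from its 3' end, so a level is given as CPM, the UMIs scaled to the total of the cells, without division by length. The GlaKO library held 4572 barcodes with a median of 6101 UMIs, and the wt library 5443 barcodes with a median of 5054 UMIs. The 2 libraries shared 6 barcode sequences. With 1 library per genotype there is no replicate and no test: each interval is an exact 95% interval that covers counting error only, and each difference is one between 2 libraries. Gla itself stood at 220 UMIs (7.47 CPM, 6.51 to 8.52) in all GlaKO cells and at 396 UMIs (12.4 CPM, 11.3 to 13.7) in all wt cells, which does not check the genotype, since the tagged 3' end need not lie in the part that was altered. The mix of classes differed as well. In oligodendrocytes Gla had 7.08 CPM (5.46 to 9.05) in GlaKO and 7.70 CPM (5.45 to 10.6) in wt. In precursors it had 8.47 CPM (4.93 to 13.6) in GlaKO and 29.0 CPM (20.7 to 39.4) in wt. Cells were clustered without the 9 genes and without the other myelin lists used here, so the 9 genes drew none of the clusters. Oligodendrocytes were 1338 of 4513 GlaKO cells (29.6%) and 849 of 5417 wt cells (15.7%), and all 21 oligodendrocyte markers had UMIs in at least 10% of them in both libraries. Precursors were 448 GlaKO and 375 wt cells, with all 13 precursor markers above that mark.

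Positions are those of GRCm38, the assembly also called mm10. Mbp encodes myelin basic protein, which binds the inner faces of the membrane together. Mobp (chr9:120149707-120181484, plus strand) encodes another basic protein of the compacted layers. Mog (chr17:37010743-37023398, minus strand) encodes an immunoglobulin-like protein of the outermost layer, and Mag (chr7:30899176-30914873, minus strand) an adhesion protein of the innermost layer that faces the axon. Cldn11 (chr3:31149920-31164324, plus strand) encodes the claudin of the tight junctions between layers. Cnp (chr11:100574904-100591729, plus strand) encodes a cyclic nucleotide phosphodiesterase of the cytoplasmic channels in myelin. Mal (chr2:127633226-127656695, minus strand) encodes a proteolipid of membrane transport, Opalin (chr19:41061710-41077113, minus strand) a transmembrane protein of oligodendrocytes, and Ermn (chr2:58045113-58052864, minus strand) a cytoskeletal protein of the myelinating cell.

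The 250 bases before the first listed start were taken from RefSeq (GRCm38.p6), which held 8 of the 9 genes. Of these 5 are shown because they carry differences described here. Opalin and Mal were lower in the oligodendrocytes rich in Hapln2 and Serpinb1a, and Ermn and Mag had the highest ratios there. Cnp had its largest shares of the set in precursors and astrocytes. Capitals mark ACAAAG and ACAATG, cores bound by SOX proteins such as SOX10, and CTGGCAC, a core bound by MYRF, each searched on both strands. No 2 matches overlapped in these windows, and each sequence runs 5′ to 3′ on the strand of its gene.
Opalin (chr19:41077114-41077363, minus strand): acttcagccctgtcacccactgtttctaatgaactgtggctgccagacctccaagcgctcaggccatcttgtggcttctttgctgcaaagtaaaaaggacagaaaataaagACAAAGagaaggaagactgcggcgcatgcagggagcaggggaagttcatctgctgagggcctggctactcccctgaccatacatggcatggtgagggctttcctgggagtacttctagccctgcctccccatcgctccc
Mal (chr2:127656696-127656945, minus strand): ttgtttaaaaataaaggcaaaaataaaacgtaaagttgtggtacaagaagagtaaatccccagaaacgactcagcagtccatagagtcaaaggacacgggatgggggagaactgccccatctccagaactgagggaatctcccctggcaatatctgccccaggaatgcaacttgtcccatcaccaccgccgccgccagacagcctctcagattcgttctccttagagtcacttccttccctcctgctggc
Ermn (chr2:58052865-58053114, minus strand): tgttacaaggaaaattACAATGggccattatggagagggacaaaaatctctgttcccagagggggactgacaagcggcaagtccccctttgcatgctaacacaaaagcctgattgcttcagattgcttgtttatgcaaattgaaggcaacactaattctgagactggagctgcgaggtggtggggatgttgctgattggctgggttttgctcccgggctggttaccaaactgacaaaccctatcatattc
Mag (chr7:30914864-30915113, minus strand): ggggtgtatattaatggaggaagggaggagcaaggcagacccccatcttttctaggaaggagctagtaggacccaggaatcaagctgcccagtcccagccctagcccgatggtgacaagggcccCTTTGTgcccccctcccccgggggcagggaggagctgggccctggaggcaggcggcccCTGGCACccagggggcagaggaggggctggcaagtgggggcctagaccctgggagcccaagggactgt
Cnp (chr11:100574689-100574938, plus strand): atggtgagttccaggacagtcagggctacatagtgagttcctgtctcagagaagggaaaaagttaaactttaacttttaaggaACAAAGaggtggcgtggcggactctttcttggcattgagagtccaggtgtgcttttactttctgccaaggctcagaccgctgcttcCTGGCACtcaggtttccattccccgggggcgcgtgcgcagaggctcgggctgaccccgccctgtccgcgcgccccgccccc

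ACAAAG was in the first windows of Opalin, Mag, Cnp and Mobp, that is in 4 of 8, against 16.5% of the first windows of all 27025 genes. Mobp held it 6 times. CTGGCAC was in those of Mag and Cnp, against 4.14% of all genes, and ACAATG in that of Ermn, against 11.0%. None of the 3 motifs was found in the windows of Mal, Mog and Cldn11. A match is a description of letters and not of a bound site.

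In oligodendrocytes the 9 genes took nearly the same part of the RNA in both libraries. They made up 3.06% of UMIs in GlaKO oligodendrocytes and 3.10% in wt oligodendrocytes, or 207 UMIs per GlaKO cell and 180 per wt cell. None of the 9 differed past a fold limit of 0.32 on the log2 scale, where 12.8% of 8623 genes measured in oligodendrocytes did so in either direction. The median log2 ratio of GlaKO over wt was 0.00 over the 9 genes (-0.03 to 0.03) and 0.03 over all measured genes. Among the cells of 1 library the share varied more than this: its 10th percentile, median and 90th percentile were 2.46, 3.03 and 3.63% in GlaKO oligodendrocytes, and 2.42, 3.06 and 3.70% in wt oligodendrocytes.

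Mal was the highest of the 9 genes, at 7105 CPM in GlaKO and 7869 CPM in wt oligodendrocytes, and it had the lowest ratio, with a log2 value of -0.15 (-0.17 to -0.13). Mbp followed at 6245 CPM in GlaKO and 5931 CPM in wt, a log2 ratio of 0.07 (0.05 to 0.09). Cnp had 4504 CPM in GlaKO and 4410 CPM in wt (0.03, 0.01 to 0.05). Mal and Mbp alone held 23.2% and 20.4% of the set's UMIs in GlaKO oligodendrocytes, and 25.4% and 19.1% in wt oligodendrocytes.

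Mag stood at 3324 CPM in GlaKO and 3323 CPM in wt oligodendrocytes, a log2 ratio of 0.00 (-0.03 to 0.03). Ermn had 2626 CPM in GlaKO and 2468 CPM in wt (0.09, 0.06 to 0.12), and Mobp 2148 CPM in GlaKO and 2310 CPM in wt (-0.10, -0.14 to -0.07). Cldn11 had the highest ratio, 0.11 (0.08 to 0.15), from 1866 CPM in GlaKO and 1726 CPM in wt. Mog had 1639 CPM in GlaKO and 1751 CPM in wt (-0.09, -0.13 to -0.06), and Opalin, the lowest of the 9, 1126 CPM in GlaKO and 1186 CPM in wt (-0.08, -0.12 to -0.03). The order of the 6 highest levels was the same in both libraries, while Cldn11 stood above Mog in GlaKO and below it in wt. Intervals of 8 genes left out equal levels, but each difference lay below the fold limit, and with 1 library per genotype the spread between animals of 1 genotype is unknown.

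**Figure D1:**
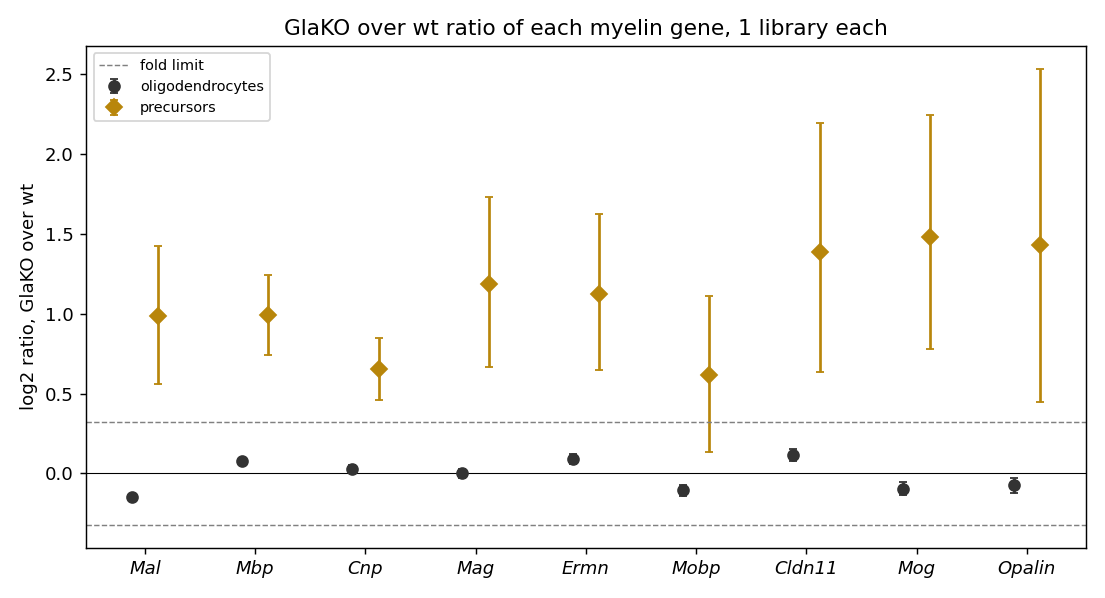
Log2 ratio of GlaKO over wt for each myelin gene in oligodendrocytes (circles) and precursors (diamonds), with exact 95% counting intervals. Dashed lines mark the fold limit of 0.32. The 9 circles lie between -0.15 and 0.11, and the 9 diamonds between 0.62 and 1.48.

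Nearly every oligodendrocyte had UMIs of every gene. The share of cells with a UMI ran from 92.5% for Opalin to 100% for Mbp in GlaKO, and from 93.6% for Opalin to 100% for Mbp, Mag and Mal in wt oligodendrocytes. A GlaKO cell held a mean of 48.0 UMIs of Mal, 42.2 of Mbp and 7.60 of Opalin, and a wt cell 45.8 of Mal, 34.5 of Mbp and 6.90 of Opalin. Once each cell was thinned to 1000 UMIs, the Fano factor (variance over mean, 1 where only counting varies) was highest for Mal, at 2.00 in GlaKO and 2.42 in wt oligodendrocytes. For the other genes it ran from 1.21 to 1.53 in GlaKO and from 1.13 to 1.40 in wt.

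Most other genes of the myelin programme were close between the libraries too. Of 25 other proteins of myelin and its paranodes, 16 had a ratio above and 9 below equal levels, and none passed the fold limit (median 0.03, -0.04 to 0.10). The tetraspanin gene Cd9, at -0.09, was among their lowest. Their highest were Mpzl1 at 0.19 and Evi2a at 0.14.

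Of 19 measured enzymes of myelin lipids, 12 were above and 7 below equal levels (median 0.02), with Degs1, a ceramide desaturase, highest at 0.27 and Elovl5, which elongates fatty acids, at 0.25. Pnpla2, a triglyceride lipase, was the lowest and the only one past the fold limit, at -0.34 (-0.58 to -0.10), and Gnpat, an enzyme of plasmalogen synthesis, stood at -0.32. Of 12 transcription regulators of the lineage 7 were above and 5 below (median 0.07). Nkx2-2 at 0.41 (0.18 to 0.65) and St18 at 0.33 (0.20 to 0.47) were past the fold limit, and Olig1 at -0.12 and Olig2 at -0.03 were lowest. Nkx2-2 was not higher in GlaKO in both parts of the split by Hapln2 and Serpinb1a described below. Rich cells had 60.8 CPM in GlaKO and 39.7 CPM in wt. Cells with little had 41.5 CPM (72 UMIs) in GlaKO and 53.7 CPM (62 UMIs) in wt. Of all genes in oligodendrocytes 7.71% were past the fold limit higher and 5.1% lower. Of 6 measured genes of committing precursors 4 were above and 2 below, with Itpr2 at 0.25 and Enpp6 at 0.13 highest, Tmem163 at -0.27 and Cnksr3 at -0.20 lowest, and none past the fold limit.

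Most heat-shock genes lay above and most immediate-early genes below equal levels in the same cells. Of 11 measured heat-shock genes 10 were above equal levels (median 0.18, 0.13 to 0.24). Of them 2 were past the fold limit higher and 0 lower, against 7.71% of all genes higher. Hspa1b at 0.68 and Hsph1 at 0.44 were highest, and Dnajb1 at -0.05 and Hspa8 at 0.11 lowest. Of 20 genes of dissociation and immediate-early response 15 were below equal levels (median -0.08, -0.22 to 0.04). Of them 3 were past the fold limit lower and 0 higher, against 5.1% of all genes lower. Egr3 at -0.70 and Fosb at -0.36 were lowest, and Socs3 at 0.15 and Klf2 at 0.11 highest. Markers of choroid plexus, none of them seen in 10% of GlaKO oligodendrocytes and 2 of 14 in 10% of wt oligodendrocytes, summed to 51.4 CPM in GlaKO and 155 CPM in wt oligodendrocytes, with 1 of 14 at 0 in GlaKO. Other marker lists went both ways. In GlaKO and wt oligodendrocytes, microglia markers summed to 249 and 197 CPM and astrocyte markers to 408 and 339 CPM. Neuron markers had 362 and 301 CPM and precursor markers 157 and 126 CPM. Ependymal markers, at 33.0 and 50.0 CPM, and T cell markers, at 10.3 and 18.8 CPM, were lower in GlaKO. The part of these differences in the myelin ratios was not tested.

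Oligodendrocytes were next split by the sum of Hapln2, which encodes a link protein of the nodes of Ranvier, and Serpinb1a, a protease inhibitor, both markers of mature cells. Cells with a sum of at least 3 UMIs were called rich and cells with fewer were said to have little, so the split is a range and not a type. There were 1009 rich cells and 329 with little in GlaKO, and 602 rich cells and 247 with little in wt. Near the limit, 126 GlaKO and 84 wt cells had a sum of 3, and 130 GlaKO and 108 wt cells a sum of 2. Rich cells were also deeper, with a median of 7200 UMIs against 5285 in cells with little in GlaKO, and 6386 against 4650 in wt.

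The 9 genes did not move as a block along this range: Opalin and Mal were lower in rich cells of both libraries, and the other 7 stayed within the fold limit. Opalin had 1006 CPM in rich cells and 1631 CPM in cells with little in GlaKO, and 1042 CPM in rich cells and 1658 CPM in cells with little in wt. Its log2 ratio of rich cells over cells with little was -0.70 (-0.76 to -0.63) in GlaKO and -0.67 (-0.75 to -0.59) in wt. Mal had 6723 CPM in rich cells and 8715 CPM in cells with little in GlaKO (-0.37, -0.40 to -0.35), and 7343 CPM in rich cells and 9589 CPM in cells with little in wt (-0.38, -0.42 to -0.35). Thus 2 of 9 genes were past the fold limit lower in each library, against 9.54% of 7671 genes in GlaKO and 7.95% of 6038 genes in wt, and 0 of 9 were past it higher, against 13.2% of genes in GlaKO and 13.4% in wt. Mal came back within the fold limit when cells were thinned to 1000 UMIs (-0.30 in GlaKO and -0.30 in wt), when cells were averaged one by one (-0.29 in GlaKO and -0.29 in wt) and without the 5% of cells richest in the set (-0.29 in GlaKO and -0.28 in wt). Opalin stayed past it under every alternative run, from -0.70 to -0.55 in GlaKO and from -0.71 to -0.52 in wt.

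Ermn and Mag leaned the other way. Ermn had 2690 CPM in rich cells and 2355 CPM in cells with little in GlaKO (0.19, 0.14 to 0.24), and 2564 CPM in rich cells and 2154 CPM in cells with little in wt (0.25, 0.19 to 0.31). Mag stood at 0.14 (0.10 to 0.18) in GlaKO and 0.14 (0.08 to 0.19) in wt. The log2 ratio of Cnp was -0.10 in GlaKO and -0.11 in wt, that of Mobp 0.10 in GlaKO and 0.04 in wt, and that of Mbp 0.04 in GlaKO and 0.09 in wt. Cldn11 stood at -0.01 in GlaKO and -0.06 in wt, and Mog at 0.02 in GlaKO and -0.01 in wt. Both libraries ordered Opalin and Mal as the lowest and Ermn and Mag as the highest of the 9 genes.

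**Figure D2:**
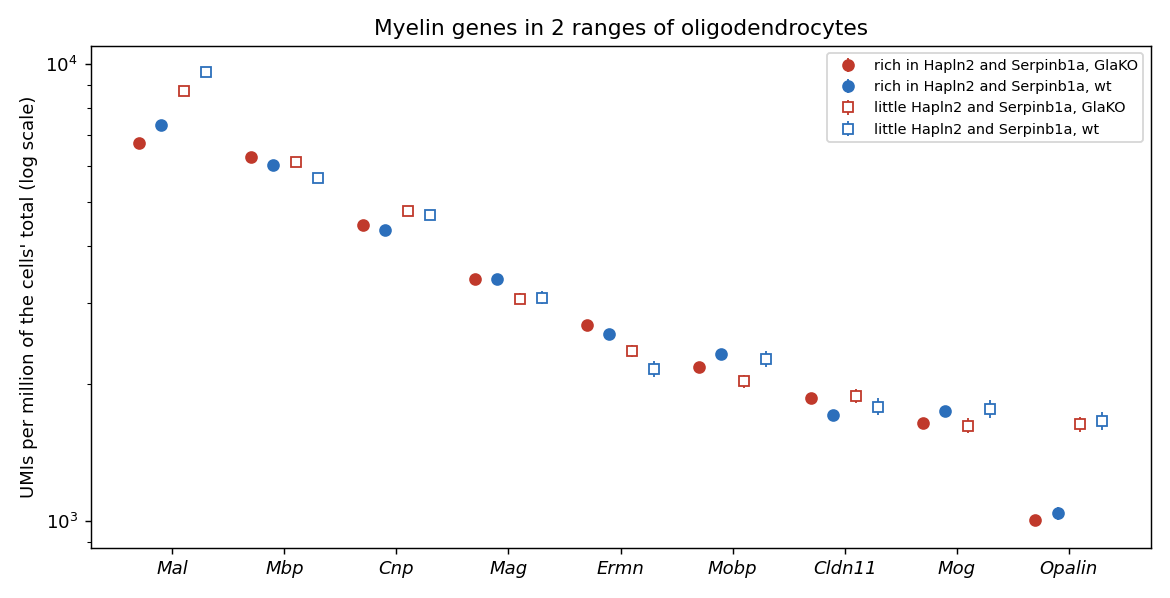
Level of each myelin gene in CPM (log axis) in oligodendrocytes rich in Hapln2 and Serpinb1a (filled circles) and in those with little (open squares), GlaKO in red and wt in blue, with exact 95% counting intervals. Opalin and Mal are lower in the rich cells of both libraries, and the other 7 genes lie within the fold limit.

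Opalin and Mal were lower at each step of the range. In cells with a sum of 0, 1 to 2, 3 to 9 and 10 or more, Opalin had 1827, 1567, 1253 and 723 CPM in GlaKO, and 1754, 1627, 1271 and 712 CPM in wt. Mal had 9856, 8340, 7403 and 5946 CPM in the same steps of GlaKO, and 11450, 8989, 8080 and 6282 CPM in wt. Ermn ran the other way, at 2163, 2418, 2539 and 2863 CPM in GlaKO and 2163, 2152, 2374 and 2836 CPM in wt. The median depth of the cells was 8879 UMIs in GlaKO and 7835 UMIs in wt at 10 or more, against 4717 UMIs in GlaKO and 4934 UMIs in wt at 0. With cells weighted equally over 5 parts of depth, the log2 ratio of rich cells over those with little was -0.60 for Opalin and -0.34 for Mal in GlaKO, and -0.52 for Opalin and -0.38 for Mal in wt.

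The 3 clusters of oligodendrocytes also differed in Opalin, Mal and Mag. They were drawn without the 9 genes, but Hapln2 and Serpinb1a were not left out, so they are no independent view of the split. Cluster 15, led by Klk6, Apod and Hapln2, held 329 GlaKO and 187 wt cells, of which 97.3% in GlaKO and 96.8% in wt were rich. It had 542 CPM of Opalin in GlaKO and 557 CPM in wt, against 1298 CPM in GlaKO and 1252 CPM in wt cells of cluster 0. Cluster 8 had 1406 CPM of Opalin in GlaKO and 1492 CPM in wt. Hapln2 was also among its leading genes, and 67.1% of its GlaKO and 58.9% of its wt cells were rich. Mal stood at 5664 CPM in GlaKO and 6013 CPM in wt in cluster 15, against 7445 CPM in GlaKO and 8531 CPM in wt in cluster 0, and 7904 CPM in GlaKO and 8438 CPM in wt in cluster 8. Mag was highest in cluster 15, at 3838 CPM in GlaKO and 3758 CPM in wt. Within each cluster the median log2 ratio of GlaKO over wt over the 9 genes lay between -0.02 and 0.03, with none past the fold limit, against 16.9%, 14.5% and 17.3% of genes in clusters 0, 8 and 15.

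Some related genes differed more between rich cells and those with little. Of 25 other myelin and paranode proteins 6 were past the fold limit higher and 2 lower in GlaKO, and 4 higher and 4 lower in wt. Of all genes 13.2% were past it higher and 9.54% lower in GlaKO, and 13.4% higher and 7.95% lower in wt. Anln, which encodes a scaffold of septin filaments in myelin, was 1.14 higher on the log2 scale in GlaKO and 1.07 in wt, and the septin gene Sept8 0.74 in GlaKO and 0.78 in wt. The tetraspanin genes Cd9 (-0.80 in GlaKO and -0.81 in wt) and Tspan2 (-0.48 in GlaKO and -0.51 in wt) were lowest. Of 19 lipid enzymes 6 in GlaKO and 4 in wt were past the fold limit higher and none lower. Elovl5 at 0.63 and Agps at 0.56 were highest in GlaKO and Scd1 at 0.62 and Elovl5 at 0.62 in wt, while Degs1 at -0.16 and Pnpla2 at -0.13 were lowest in GlaKO and Cers2 at -0.21 and Degs1 at -0.09 in wt. Of the lineage regulators 1 of 12 was past the fold limit higher and 2 lower in GlaKO, and 0 of 11 higher and 3 lower in wt. Olig2 stood at -0.55 and Tcf7l2 at -0.33 in GlaKO, the lowest, with Nkx2-2 at 0.55 and Carhsp1 at 0.12 highest. In wt Zfp536 at -0.49 and Nkx2-2 at -0.44 were lowest and Carhsp1 at 0.08 and Myrf at 0.04 highest, so Nkx2-2 had opposite signs in the 2 libraries. Of 5 measured commitment genes 1 was past the fold limit higher and 2 lower in GlaKO, and 1 higher and 1 lower in wt. Enpp6, which encodes a choline-specific phosphodiesterase, had 134 CPM in rich cells and 12.1 CPM in cells with little in GlaKO (3.47, 2.85 to 4.17), and 127 CPM in rich cells and 15.6 CPM in cells with little in wt (3.03, 2.35 to 3.80). Tmem163 (-1.20 in GlaKO and -1.21 in wt) and Fyn (-0.44 in GlaKO and -0.13 in wt) were lowest, and Itpr2 at 0.16 in GlaKO and Tns3 at 0.26 in wt came after Enpp6.

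In precursors the myelin genes were low in both libraries and higher in GlaKO. They summed to 1011 CPM (968 to 1056) in GlaKO and 546 CPM (508 to 586) in wt precursors, or 4.53 UMIs per GlaKO cell and 2.01 per wt cell. All 9 had a ratio above equal levels. Of the 7 genes that reached the summed count of 100 all were past the fold limit higher, against 10.2% of 6878 genes in that direction, with a median log2 ratio of 0.99 (0.65 to 1.42) and 0.00 over all measured genes. A gene near that count can reach it through the library where it is high, as for Mog below.

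Mog had 85 UMIs (42.3 CPM) in GlaKO and 21 UMIs (15.2 CPM) in wt precursors, a log2 ratio of 1.48 (0.78 to 2.24). Mag had 65.8 CPM in GlaKO and 29.0 CPM in wt (1.18, 0.66 to 1.73), and Ermn 75.7 CPM in GlaKO and 34.8 CPM in wt (1.12, 0.65 to 1.62). Mbp had 259 CPM in GlaKO and 130 CPM in wt (0.99, 0.74 to 1.24), and Mal 88.7 CPM in GlaKO and 44.9 CPM in wt (0.98, 0.56 to 1.42). Cnp, the highest of the 9 here, had 364 CPM in GlaKO and 232 CPM in wt (0.65, 0.46 to 0.84), and Mobp 58.8 CPM in GlaKO and 38.4 CPM in wt (0.62, 0.14 to 1.11). Under the count were Cldn11, with 72 UMIs in GlaKO and 19 in wt, and Opalin, with 43 in GlaKO and 11 in wt.

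The summed level was as high in a class that does not make myelin. T cells summed to 994 CPM (938 to 1052) in GlaKO and 488 CPM (439 to 542) in wt, with intervals that overlapped those of precursors in both libraries. In cells thinned to 1000 UMIs, Mbp had a UMI in 22.5% of GlaKO precursors (18.8 to 26.7) and in 26.9% of GlaKO T cells (21.0 to 33.5), and in 16.0% of wt precursors and 17.2% of wt T cells. Unthinned, at a median depth of 2695 and 5088 UMIs, Mbp was seen in 57.1% of GlaKO precursors and 72.6% of GlaKO T cells, and at 2490 and 4225 UMIs in 33.9% of wt precursors and 49.1% of wt T cells. The shares of cells with Mbp in precursors did not exceed those in T cells. The similar sums held unlike mixes of genes. Mbp had 307 CPM in GlaKO and 187 CPM in wt T cells, against 259 CPM in GlaKO and 130 CPM in wt precursors. Cnp went the other way, with 211 CPM in GlaKO and 135 CPM in wt T cells, against 364 CPM in GlaKO and 232 CPM in wt precursors. The other genes lay on either side. Where the RNA in either class came from was not tested. No precursor of either library reached 10 UMIs of the set among 1000, whereas 1337 of 1338 GlaKO and 849 of 849 wt oligodendrocytes did.

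Both precursor clusters showed the higher level in GlaKO. In cluster 10, with a median depth of 8027 UMIs in GlaKO and 7046 UMIs in wt, the 9 genes summed to 857 CPM in GlaKO and 483 CPM in wt. In cluster 12, with 2227 UMIs in GlaKO and 2149 UMIs in wt, they summed to 1317 CPM in GlaKO and 628 CPM in wt. Precursors with at least 3 UMIs of Bmp4, Gpr17 and Enpp6, genes of cells that begin to differentiate, were 247 in GlaKO and 165 in wt. Mbp had 244 CPM in these and 296 CPM in the others of GlaKO, and 105 CPM in these and 165 CPM in the others of wt, so it was not higher in the committing cells of either library. Cnp ran the other way, with 377 CPM in these (346 to 411) and 330 CPM in the others (285 to 380) of GlaKO, and 262 CPM in these (228 to 300) and 189 CPM in the others (156 to 228) of wt. The committing cells were deeper, with a median of 4590 UMIs against 2178 in the others of GlaKO, and 3490 UMIs against 2167 in the others of wt. Of the 9 genes, 8 were lower in the committing cells of GlaKO and 6 in those of wt. With them left out the median ratio was 0.94 over the same 7 genes.

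Of 19 measured other myelin proteins in precursors 15 were above equal levels and 6 past the fold limit higher (median 0.23, 0.01 to 0.40). Of all genes in precursors 10.2% were past it higher and 7.85% lower. Lgi3 at 0.60 was among the highest, while Gpm6b at -0.03 and Cd9 at -0.03 were lowest. Lipid enzymes (8 of 14 above, median 0.05, 2 past the fold limit higher) and lineage regulators (8 of 10 above, median 0.06, none past the fold limit) had medians close to that of all genes. Elovl5 and Fa2h (both 0.36) were highest and Sptlc2 (-0.14) and Far1 (-0.11) lowest among the enzymes, and Zfp488 (0.21) and Nkx2-2 (0.11) highest and Carhsp1 (-0.23) and Zfp536 (-0.12) lowest among the regulators. Of 7 measured commitment genes 6 were above equal levels, with 4 past the fold limit higher and 1 lower. Bmp4 was highest at 1.74 (1.19 to 2.33), then Fyn at 0.56, with Tmem163 at -0.45 and Neu4 at 0.03 lowest. Heat-shock genes were above equal levels in 7 of 11 (median 0.04) and none was past the fold limit. Hsph1 at 0.28 and Hsp90aa1 at 0.20 were highest, and Hspa1a at -0.23 and Hspa1b at -0.03 lowest. Immediate-early genes were below in 13 of 16 (median -0.07), with 1 past the fold limit higher and 3 lower. Btg2 at -0.55 and Ier2 at -0.49 were lowest, and Atf3 at 0.37 and Klf6 at 0.09 highest. Oligodendrocyte markers had UMIs in 10% of precursors for 12 of 21 in GlaKO and 8 of 21 in wt, summed to 1058 CPM in GlaKO and 859 CPM in wt, with none at 0. Their part in the higher myelin genes was not tested.

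In the 5 other classes with at least 100 cells per library the 9 genes were likewise low and higher in GlaKO. They summed to 1091 CPM in GlaKO and 578 CPM in wt astrocytes, and to 832 CPM in GlaKO and 456 CPM in wt neurons. Microglia had 682 CPM in GlaKO and 401 CPM in wt, and choroid plexus 388 CPM in GlaKO and 244 CPM in wt. The median log2 ratio over the 5 classes, T cells included, was 0.87 (0.75 to 0.98). The classes stood in the same order in both libraries, from astrocytes over precursors, T cells, neurons and microglia to choroid plexus. The intervals of precursors, astrocytes and T cells overlapped one another in both libraries. In wt those of T cells and neurons, and of neurons and microglia, overlapped as well.

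Per cell the classes lay close together within a library: a mean of 3.59 to 5.63 UMIs of the set in GlaKO, precursors included, and of 1.71 to 2.27 UMIs in wt. Relative to oligodendrocytes of the same library the 5 classes had 1.27 to 3.57% of the summed level in GlaKO and 0.786 to 1.87% in wt. Cells with 10 or more UMIs of the set among 1000 were 10 of 2606 GlaKO and 5 of 4007 wt cells of these classes. The part of oligodendrocytes among the cells moved with this, at 29.6% in GlaKO and 15.7% in wt, as did the set's share of all UMIs, 0.991% in GlaKO and 0.511% in wt. With 1 library per genotype these cannot be told apart from the genotype.

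**Figure D3:**
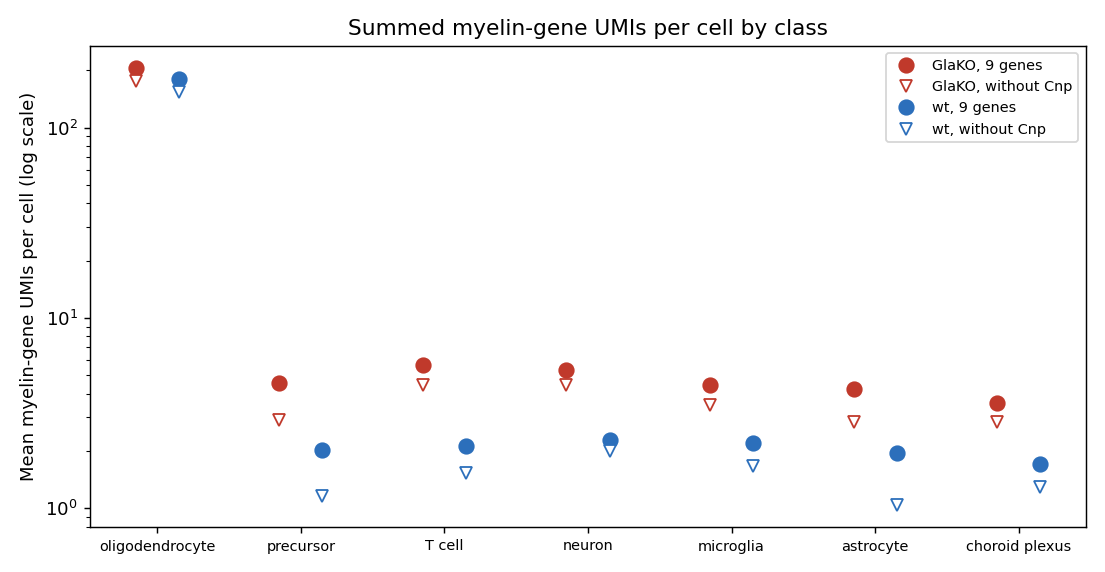
Mean UMIs of the 9 myelin genes per cell (log axis) in each class, GlaKO in red and wt in blue. Filled circles sum all 9 genes and open triangles leave out Cnp. Oligodendrocytes hold 207 UMIs in GlaKO and 180 in wt, and the other classes 3.59 to 5.63 in GlaKO and 1.71 to 2.27 in wt.

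All measured genes of the set were past the fold limit higher in each of these classes: 9 of 9 in choroid plexus (16.3% of all genes), microglia (8.27%) and neurons (10.5%), 8 of 8 in astrocytes (10.6%) and 4 of 4 in T cells (18.5%). As in precursors, a gene near the summed-count minimum can reach it through the library where it is high. In astrocytes Cldn11 had 87 UMIs in GlaKO and 16 in wt. Below the minimum, Mobp in T cells had a log2 ratio of 0.31 (-0.31 to 0.96), within the fold limit. Ermn, Mog, Cldn11 and Opalin in T cells, and Opalin in astrocytes, had 1.18 to 1.82. Mag had 110 UMIs (93.3 CPM) in GlaKO and 11 UMIs (15.0 CPM) in wt T cells. Its log2 ratio ran from 0.72 in microglia to 2.64 in T cells. That of Cldn11 ran from 1.31 in microglia to 2.09 in astrocytes, where it had 51.7 CPM in GlaKO and 12.2 CPM in wt. Mal ran from 0.86 in choroid plexus to 1.89 in T cells, Mbp from 0.40 in neurons to 1.05 in astrocytes, and Cnp from 0.40 in astrocytes to 1.38 in neurons. In the classes where they were measured, Ermn lay between 0.56 and 0.98, Mobp between 0.47 and 0.77, Mog between 0.58 and 1.12, and Opalin between 0.58 and 0.99. The 9 genes did not keep 1 ratio to one another between oligodendrocytes and the other classes. Mal was 23.2% of the set's UMIs in GlaKO and 25.4% in wt oligodendrocytes, and over the 5 classes 11.9 to 16.9% in GlaKO and 7.36 to 13.8% in wt. Mbp was 20.4% in GlaKO and 19.1% in wt oligodendrocytes, and over the 5 classes 22.2 to 30.9% in GlaKO and 20.2 to 38.6% in wt.

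Cnp took a larger share of the set in most other classes than in oligodendrocytes, and its largest in precursors and astrocytes. It was 14.7% of the set's UMIs in GlaKO and 14.2% in wt oligodendrocytes, but 36.0% in GlaKO and 42.4% in wt precursors, and 32.5% in GlaKO and 46.5% in wt astrocytes. Mal took a smaller share there than in oligodendrocytes, at 8.77% in GlaKO and 8.22% in wt precursors, and 11.9% in GlaKO and 7.36% in wt astrocytes. The Cnp level in precursors was 8.07% of that in oligodendrocytes in GlaKO and 5.25% in wt, and in astrocytes 7.87% in GlaKO (354 CPM) and 6.10% in wt (269 CPM). In T cells it was 4.69% in GlaKO (211 CPM) and 3.06% in wt (135 CPM), and in choroid plexus 1.84% in GlaKO (82.9 CPM) and 1.32% in wt (58.2 CPM). The intervals of both precursors (338 to 391 CPM in GlaKO and 207 to 258 CPM in wt) and astrocytes (326 to 384 CPM in GlaKO and 242 to 299 CPM in wt) lay above that of T cells (186 to 239 CPM in GlaKO and 110 to 164 CPM in wt). Cnp overlaps Dnajc7 on the opposite strand, and whether counting used strand is not given by the sources at hand. Dnajc7 had 157 CPM in GlaKO and 130 CPM in wt precursors and 168 CPM in GlaKO and 152 CPM in wt oligodendrocytes, and its part in the Cnp count was not tested.

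**Figure D4:**
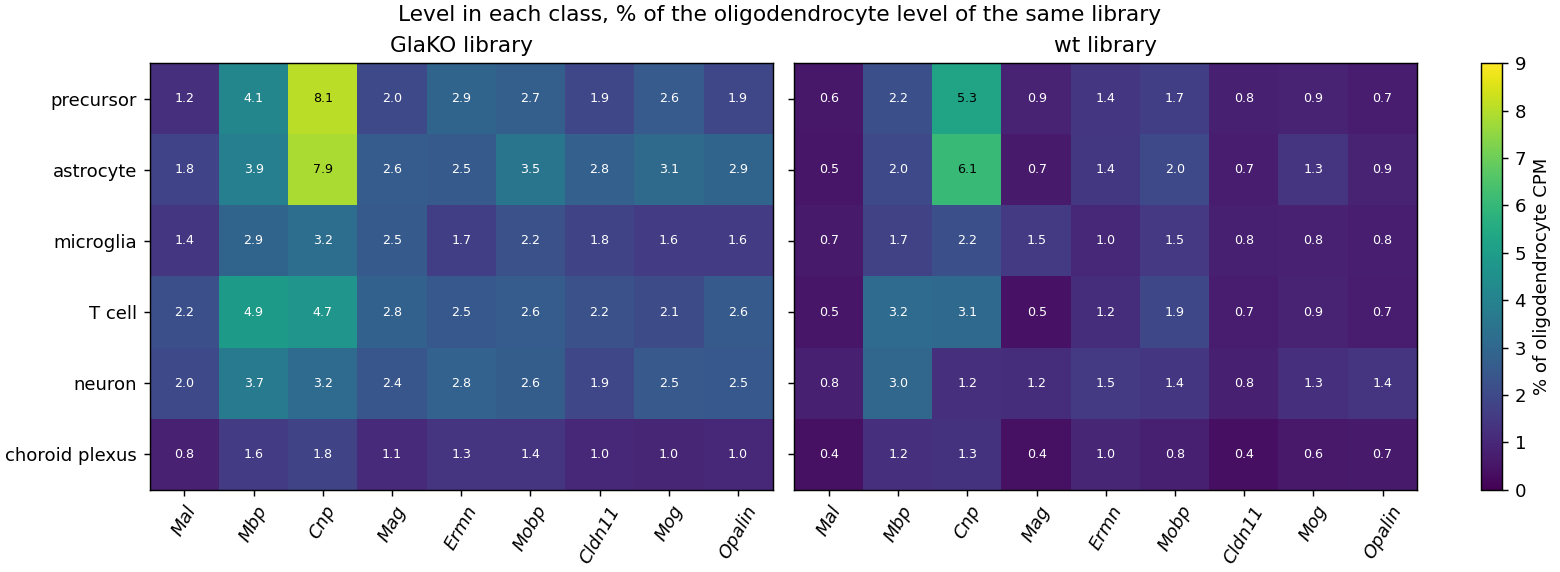
Level of each myelin gene in 6 classes as a percentage of its CPM in oligodendrocytes of the same library, GlaKO left and wt right. Cnp stands out in precursors (8.07% in GlaKO and 5.25% in wt) and astrocytes (7.87% in GlaKO and 6.10% in wt).

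Across the 7 classes of both libraries, 14 points, genes outside the set whose level ran most like the summed set included Tmem88b (Pearson r 0.994 on log2 of CPM plus 1), Anln (0.992), the transcription factor gene Nkx6-2 (0.989), Aspa (0.988), which cleaves N-acetylaspartate, Cdc42ep2 (0.987), Ndrg1 (0.987) and Ppp1r14a (0.986). The points share libraries and depth, and this is a description over 3443 genes with a mean of at least 50 CPM in oligodendrocytes. The oligodendrocyte points lie far above the others, so r mainly reflects the step between them. Each member is part of the sum it was set against, which raises its r. The members ran from 0.964 for Cnp to 0.996 for Mobp, and Mag had 0.973. Within oligodendrocytes thinned to 1000 UMIs no pair of the 9 genes had a correlation above 0.224 in the 1338 GlaKO cells or above 0.251 in the 849 wt cells, Mal and Opalin being the highest pair in both, which in counts this sparse is no finding.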

How the data were processed

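Hippocampal cells of 1 GlaKO and 1 wt library were profiled with Chromium 3' version 3.1 chemistry. The authors deposited raw counts, whole UMIs per gene and barcode, already filtered for cells and genes (smallest number of genes per barcode 988 in GlaKO and 982 in wt). Cell Ranger 6.0.1, Seurat 4, R 4.1.3 and mm10 stand in the submitters' processing notes, and Cell Ranger 4.0, for demultiplexing, in the labels' protocols. The annotation and the strand setting are not given by the sources at hand.

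Depth was 29914106 UMIs in GlaKO and 31929688 UMIs in wt. Scrublet in scanpy 1.11.5 marked 59 GlaKO (1.29%) and 26 wt barcodes (0.478%) as doublets, which were removed, though at under 0.5% the caller had not worked in wt. Clustering used 2000 variable genes without the 9 members and 4 related lists, 30 principal components, 15 neighbours and Leiden resolution 1. Clusters were named, with "-like" understood, from at least 3 markers seen in 10% of cells. UMIs were summed per class and library, and a gene was compared from a summed count of 100. The fold limit was 0.32 on the log2 scale. Ratios have exact conditional, sums exact Poisson and shares exact Clopper-Pearson 95% intervals, for counting error only. The ratio was tested on simulated data. Cells were thinned to 1000 UMIs for shares. TMM factors came from edgeR 4.0.16. Promoter windows are RefSeq's, and gene positions GENCODE's, on GRCm38.

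The text names all 9 members between genotypes and between rich cells and those with little (elsewhere the members named were chosen after their values were seen), the 2 highest and 2 lowest measured genes of each other list compared, and the 8 genes most like the set, apart from a gene that is not reported here. Members and lists were chosen with earlier results of these data known. The alternatives tried were other doublet removal, clustering, scaling, depth, pooling, count minimum and limits between cells.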

Additional observations from a re-analysis of the deposited data

Results flagged for a closer look

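For 4 genes the ratio of GlaKO over wt had one sign in precursors and the other in oligodendrocytes. The log2 ratio of Mog was 1.48 in precursors and -0.09 in oligodendrocytes, that of Mal 0.98 in precursors and -0.15 in oligodendrocytes, and that of Mobp 0.62 in precursors and -0.10 in oligodendrocytes. Opalin, with 54 UMIs in precursors, had 1.43 in precursors and -0.08 in oligodendrocytes. The difference between the classes was not tested, since each genotype has 1 library. The 5 classes other than oligodendrocytes and precursors had a median of 0.87 for the summed set.

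Endothelial cells, which had too few GlaKO cells for a comparison of classes, are only described here. They fell into different clusters: cluster 19 held 34 GlaKO and 28 wt cells, and cluster 22 held 1 GlaKO and 72 wt cells. The 9 genes made up 1.37% of UMIs in 35 GlaKO cells and 0.291% in 100 wt cells. The median cell had 7 UMIs of the set in GlaKO and 3 in wt, and 13 of 35 GlaKO cells and 5 of 100 wt cells had 10 or more among 1000. The share per cell had a median of 0.502% and a 90th percentile of 3.14% in GlaKO, and 0.111% and 0.493% in wt. Hapln2 and Serpinb1a summed to at least 3 UMIs in 22.9% of GlaKO and 2% of wt cells. Where this RNA came from was not tested.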

How the results depend on the processing

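No paired analysis was possible because each genotype has 1 library. None of the 9 genes passed the fold limit between GlaKO and wt oligodendrocytes under any alternative run, and thinning to 1000 UMIs moved their median to 0.042. Between rich cells and those with little, thinning moved the median to 0.11 in GlaKO and 0.11 in wt. In wt it was 0.066 without the 5% of cells richest in the set, 0.075 as a mean of cells and -0.12 with equal weights over 5 parts of depth. Each of the first 3 settings left 1 gene past the fold limit lower (Opalin) in GlaKO and in wt. In precursors 2 genes were left at a minimum count of 500. Without precursors that held at least 3 UMIs over the whole list of commitment genes, which leaves 31 GlaKO and 26 wt cells, 4 genes were past the fold limit, and Mag turned to -0.28 (-3.18 to 2.62) on 6 UMIs. In the other classes the median of 0.87 was 0.73 without the 4% of highest doublet scores, 1.03 after thinning, 0.73 without the 5% of richest cells and 1.12 as UMIs per cell. The share of all genes past the fold limit in precursors, 18.1%, was 29.0% at a minimum count of 20 and 7.90% at 500, and in oligodendrocytes 12.8%, 20.8% and 5.59%. The cause of these shifts was not tested. The alternatives with Bmp4, Gpr17 and Enpp6, equal depth between rich cells and those with little, the sum without Cnp, and UMIs per cell were chosen after seeing the data.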
